A study of Arabidopsis thaliana with 17 samples.

Results

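The comparison described here sets hsfa2 seedlings against wild-type seedlings of Arabidopsis thaliana that had received both an early priming heat and a later triggering heat. It uses the 2 arrays whose titles give hsfa2 with both treatments and the 3 arrays whose titles give the wild type with both treatments, 5 of the 17 arrays in all, and 22746 probe sets were tested. The hsfa2 seedlings carry the HSFA2 knockout SALK_008978, a single mutant line, and the wild type is Col-0. Whole seedlings were collected at 7 d of age from medium with sucrose, under 16 h of light a day at 22 °C. In both genotypes here the seedlings were heated at 4 d of age for 1 h at 37 °C, recovered for 3 d and were heated again for 1 h at 37 °C just before collection ("both heats"). The same genotype difference was read from 2 hsfa2 and 3 wild-type arrays with the triggering heat alone ("one heat"), and from 2 hsfa2 and 3 wild-type arrays never heated ("no heat"). No hsfa2 array after priming alone was analysed here. By their labels the replicates are biological, and the number of seedlings pooled in each is not stated.

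HSFA2 encodes a heat shock transcription factor whose own transcript is strongly induced by heat. Heat shock factors bind heat shock elements in promoters and switch on genes for chaperones, the proteins that keep other proteins folded or return them to shape. In Arabidopsis HSFA2 is known for prolonging the heat response and for heat memory, in which a past heat treatment alters how genes respond to a later one. The question put to the data was which transcripts of that second response are at another level when HSFA2 is missing.

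The annotation lists no probe set for HSFA2, and the loss of its transcript was therefore not checked. Markers fixed for green tissue and root were present in both genotypes. The 3 measured photosynthesis genes (RCA, LHCB4.1 and PRK) had a log2 summed intensity of 14.79 to 14.91 in hsfa2 and 14.61 to 14.68 in wild-type seedlings, and 0 of 3 were called. The 3 measured root markers (PYK10, EXPA7 and EXPA18) summed to 11.33 to 11.35 in hsfa2 and 10.82 to 11.70 in the wild type, again with 0 of 3 called. In whole seedlings, fewer cells of a type and less RNA per cell cannot be told apart. The median intensity of the arrays was 57.3 and 56.9 in hsfa2 and 56.1, 55.1 and 53.9 in the wild type. The log2 difference between the 3′ and 5′ probe sets of GAPDH, a sign of RNA quality, was 1.10 and 1.13 in hsfa2 and 1.69, 0.58 and 0.52 in the wild type, so wild-type replicate 1 lay above and the other 2 wild-type arrays below the mutant. On the first principal component of these 5 arrays, with 43% of their variance, wild-type replicates 1 and 3 (−27.9 and −40.9) lay on one side, and wild-type replicate 2 (17.97) lay on the other with the hsfa2 arrays (19.6 and 31.2). Wild-type replicate 2 stood apart from the other 4 arrays on a second principal component with 35.5% of their variance (−48.9, against −2.37 to 24.6), and the count of calls is given below with and without it. The median SD over all probe sets was 0.094 between the 2 hsfa2 arrays and 0.208 between the 3 wild-type arrays.

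After both heats, 311 probe sets differed between hsfa2 and the wild type at an adjusted p under 0.05 in limma, 1.37% of those tested. Of these, 181 (0.796%) were lower and 130 (0.572%) were higher in hsfa2. The falls were the larger changes. Among the 146 probe sets (0.642%) that differed at least 2-fold, 118 (0.519%) were lower and 28 (0.123%) higher, and the median change was −1.18 on the log2 scale over the 181 and 0.82 over the 130. Lower probe sets included genes for 2 HSP70 family chaperones, a seed maturation protein, a glycosyltransferase, a glutathione transferase, an expansin-like protein and a tetraspanin. Higher ones included genes for a MYB transcription factor, an AP2/ERF factor and a mitochondrial carrier. In all 311, the arrays of the 2 genotypes did not overlap, which was also true of 16.9% of all probe sets in the lower direction and of 16.7% in the higher direction. An unadjusted p under 0.05 in limma was reached by 3322 of the 22746 probe sets. That is the background for such counts in the gene lists below.

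The count rested on an estimate of spread shared by all 17 arrays and on single arrays of the comparison: a fit of only these 5 arrays gave 5 calls, and leaving out hsfa2 replicate 1, hsfa2 replicate 2 or wild-type replicate 1, 2 or 3 gave 72, 33, 140, 498 or 146 calls. Weights that favour arrays of low spread gave 1726 calls. With each array centred on its median, 106 were higher and 248 lower, a share of higher calls of 29.9%, against 41.8% in the fit reported here. Because the arrays of the genotypes did not overlap in any of the 311, leaving out a single array could not reverse a direction. The kept directions given next are thus no test. All 311 kept their direction when any one of these 5 arrays was left out, and 30 of them (4 higher and 26 lower) passed the threshold each time. Of the genes described below these included AT2G21820, UGT71C2, AT5G05220, AT1G02700, AT5G40645, AT1G11660, AT1G27285, AT5G53680, AT5G20200 and AT5G40450, and the unnamed probe sets included that of the largest fall, 258603_at and 264210_at.

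The largest named fall was that of AT2G21820, a gene for a seed maturation protein. Its log2 intensity after both heats was 6.55 and 6.32 in hsfa2 and 9.98, 9.22 and 9.68 in the wild type. All wild-type arrays lay above both hsfa2 arrays, by a fitted −3.19 (SE 0.29, limma adjusted p = 0.00024). After one heat the levels were 6.06 and 6.14 in hsfa2 and 6.57, 5.85 and 7.05 in the wild type, and the groups overlapped. Without heat they were 4.12 and 3.87 in hsfa2 and 4.34, 3.96 and 4.39 in the wild type. The hsfa2 seedlings with both heats thus stood close to those with one heat, while the wild type with both heats stood above every other array shown.

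UGT71C2, which encodes a UDP-glycosyltransferase, was at 5.37 and 5.45 in hsfa2 and at 8.22, 7.56 and 8.04 in the wild type after both heats (−2.53, SE 0.27, limma adjusted p = 0.000503). After one heat its levels overlapped, 5.57 and 5.62 in hsfa2 and 5.83, 5.22 and 5.64 in the wild type. Its wild-type change from no heat to one heat was 0.16 (SE 0.24), which was not called, so the genotypes parted on a gene that one heat left near its unheated level. AT5G55050, which encodes a GDSL-type lipase, had 6.66 and 5.84 in hsfa2 against 8.43, 8.30 and 7.83 in the wild type after both heats (−1.93, SE 0.29, limma adjusted p = 0.00568). After one heat both hsfa2 arrays (7.22 and 6.99) were above the wild type (6.85, 5.76 and 6.14), though that difference of 0.86 (SE 0.29) was not called. AT5G40645, of the family of the immune regulator RIN4, was at 2.73 and 2.68 in hsfa2 after both heats and at 4.48, 5.34 and 4.99 in the wild type (−2.23, SE 0.19). Its hsfa2 level was near the lowest log2 intensity in the table, 1.98, and was 2.62 and 2.61 after one heat, so the fall is measured from a wild-type level that itself was low.

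**Figure D1:**
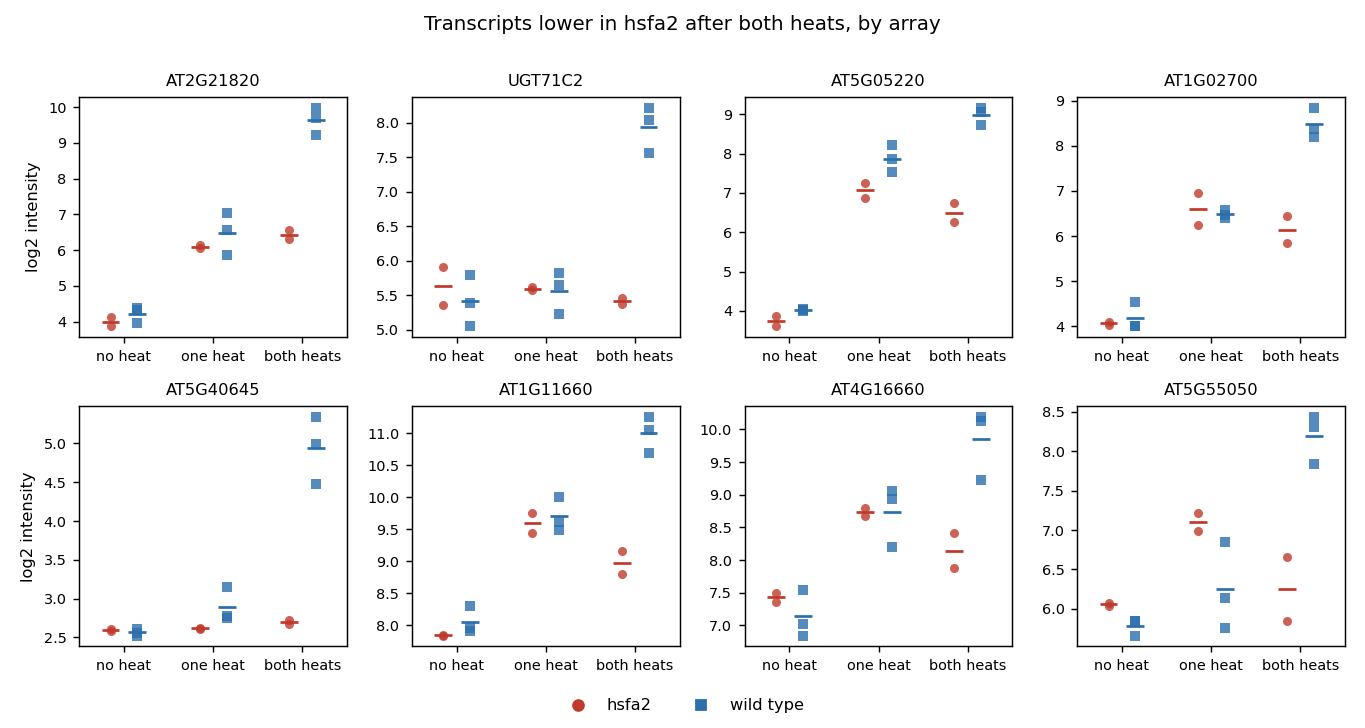
Log2 intensity (y axis) of 8 transcripts lower in hsfa2 after both heats, in seedlings with no heat, one heat and both heats (x axis), with hsfa2 arrays as red circles left of wild-type arrays as blue squares and group means as lines. After both heats, AT2G21820 was at 6.32 and 6.55 in hsfa2 and between 9.22 and 9.98 in the wild type, while the genotypes overlapped after one heat.

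Of 16 listed HSP70 family genes 4 were measured, and 2 of these were called. HSP70 proteins are the chaperones that bind unfolded stretches of other proteins. AT1G11660 was at 9.17 and 8.80 in hsfa2 and at 11.06, 10.69 and 11.25 in the wild type after both heats (−2.02, SE 0.20, limma adjusted p = 0.000445). AT4G16660 was at 8.41 and 7.87 in hsfa2 and at 10.19, 9.22 and 10.14 in the wild type (−1.71, SE 0.32, limma adjusted p = 0.0224). Both had risen with one heat in the wild type, by 1.64 (SE 0.18) and 1.59 (SE 0.29). After one heat the genotypes differed by −0.11 (SE 0.20) for AT1G11660 and by 0.00 (SE 0.32) for AT4G16660, neither of them called. The cytosolic HSP70 gene AT3G09440 was at 13.54 and 13.52 in hsfa2 and at 13.39, 13.54 and 13.51 in the wild type (0.05, SE 0.11), and Hsp70-2 differed by −0.07 (SE 0.23). Neither of those was called. The HSP70 list thus had 2 of 4 measured members lower, with a median of −0.89, beside 0.796% lower and a median of −0.01 over all probe sets. A fit of only the 10 arrays heated just before collection called 1 of the 4, and a fit of only the 5 compared arrays called 0. In these fits the limma adjusted p was 0.00493 and 0.0523 for AT1G11660 and 0.051 and 0.144 for AT4G16660.

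Chaperones with large heat responses were not called. Of 11 measured small heat shock protein genes, which hold unfolding proteins in solution, 0 were called by limma, 0 had an unadjusted p under 0.05, and the median was −0.25. ATHSP22.0, a small heat shock protein of the endomembrane system, was at 13.13 and 13.10 in hsfa2 and at 13.35, 13.42 and 13.45 in the wild type (−0.29, SE 0.52). AT1G52560 was at 13.01 and 12.87 in hsfa2 and at 13.08, 13.31 and 13.34 in the wild type (−0.31, SE 0.40). Both mutant arrays were below the wild type for each of these genes, by differences below the fitted standard error. That error was wider than the spread of the compared arrays. The SD of ATHSP22.0 was 0.02 in hsfa2 and 0.05 in the wild type after both heats, against 1.94 between the 2 wild-type arrays with priming alone, and that of AT1G52560 was 0.10 and 0.14 against 1.35. In a fit of only the 10 arrays heated just before collection, ATHSP22.0 had the same difference with an SE of 0.12 (limma adjusted p = 0.271) and AT1G52560 one with an SE of 0.13 (limma adjusted p = 0.3). Without the 2 priming-alone arrays, with only the 10 heated arrays, or with only the 5 compared arrays, 0 of the 11 were called by limma, with 0, 2 and 0 at an unadjusted p under 0.05. Over all 22746 probe sets, 3431, 3503 and 3087 were at an unadjusted p under 0.05 in these fits. The largest difference on the list was that of AT5G47600 at −0.83 (SE 0.41), where the groups overlapped. AT5G47600, AT4G21870 and AT5G54660 were not induced by one heat in the wild type (0.45, −0.75 and −0.08, not called). The 8 members with the largest responses to one heat lay between 12.20 and 13.86 in these 5 arrays, close to the top of the scale, a log2 intensity of 14.26.

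Of 8 measured genes for HSP90 and HSP100 partners and co-chaperones 0 were called, with a median of −0.15 and a range of −0.25 to 0.18. Hop2 and Hop3, which hand proteins from HSP70 to HSP90, differed by −0.25 (SE 0.24) and −0.14 (SE 0.46). Fes1A, which assists HSP70 in the cytosol, differed by 0.03 (SE 0.23). Genes known from earlier studies of heat memory (3 measured) were not called either, with AT5G48570, an FK506-binding co-chaperone, at 0.00 (SE 0.49), HSA32, a heat acclimation protein, at 0.18 (SE 0.49) and ATHSP22.0 as given. The 3 measured HSFA2-dependent genes of earlier work (ATHSP22.0, AT5G48570 and AT1G52560) had a median of −0.29. The standard errors of 0.40 to 0.52 of these genes were 0.12 to 0.14 in the fit of the 10 heated arrays, which called 0 of them as well (smallest limma adjusted p = 0.271), with 2 of the 3 HSFA2-dependent genes at an unadjusted p under 0.05. Of 24 listed heat shock factors and their regulators 0 had a probe set with 1 gene. Folding helpers of the endoplasmic reticulum had 0 of 4 called, and 0 had an unadjusted p under 0.05, with a range of −0.35 to −0.06.

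Among the other lists, seed maturation had 1 of 5 called, AT2G21820. Its log2 summed intensity was 7.66 to 7.90 in hsfa2 and 9.42 to 10.20 in the wild type, and the other 4 members ranged from −0.41 for LEA4-5 to 1.16 for M10. The abscisic acid and dehydration list had 0 of 4 called and 0 at an unadjusted p under 0.05. All 4 members were below 0 (median −0.61), as all 4 were after one heat (median −1.10). COR15A, which encodes a chloroplast protein of cold acclimation, was at 5.95 and 4.97 in hsfa2 and at 8.10, 6.50 and 7.38 in the wild type (−1.87, SE 0.97, limma adjusted p = 0.402). The arrays did not overlap, but the spread was wide. After one heat COR15A also differed without overlap, by −2.38 (SE 0.97), which was not called either. The glucosinolate list had 0 of 3 called by limma and 2 at an unadjusted p under 0.05, beside 3322 of all 22746 probe sets. BCAT4, an aminotransferase that starts the lengthening of methionine for these defence compounds, was at 8.52 and 8.36 in hsfa2 and at 9.85, 10.22 and 9.35 in the wild type (−1.37, SE 0.31, limma adjusted p = 0.0517). It missed the threshold narrowly, passed it without 3 arrays of low signal for the hybridisation control bioB, the 2 with priming alone and wild-type replicate 3 of no heat (limma adjusted p = 0.0456), and its difference after one heat was −0.05. Without heat it was −0.73 (SE 0.31, not called), at 8.82 and 9.22 in hsfa2 and at 9.54, 9.61 and 10.10 in the wild type. With only the 10 heated or the 5 compared arrays, the smallest limma adjusted p on the glucosinolate list was 0.0953 or 0.14. Expansins and xyloglucan enzymes, which loosen the cell wall, had 0 of 9 called and 0 at an unadjusted p under 0.05, with a median of −0.15. The antioxidant list had 0 of 3 called (median −0.38), reference genes 0 of 4 (median 0.09), hypoxia genes 0 of 2 (median −0.44), and the single measured members of the clock, defence and flavonoid lists were not called.

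Transcripts of the organelle genomes were not called. The 69 plastid-encoded genes had 0 calls, 3 at an unadjusted p under 0.05, a median of 0.15 and a range of −1.10 to 1.17. The 16 mitochondrion-encoded genes had 0 calls, 0 at an unadjusted p under 0.05 and a median of −0.32. Of these, 15 were below 0, beside 11706 of all 22746 probe sets, and the only one above it was ccb382, a cytochrome c biogenesis gene, at 0.49 (SE 0.27). The median of the 16 was much the same in the other arrays, −0.27 after one heat (10 below 0) and −0.34 without heat. Signals for 9 of the 16 were over 3 log2 units higher after one heat than without heat in the wild type, and their wild-type arrays after both heats were spread widely: cox2, a cytochrome oxidase subunit, was at 9.03 and 8.79 in hsfa2 and at 9.48, 8.87 and 10.28 in the wild type.

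**Figure D2:**
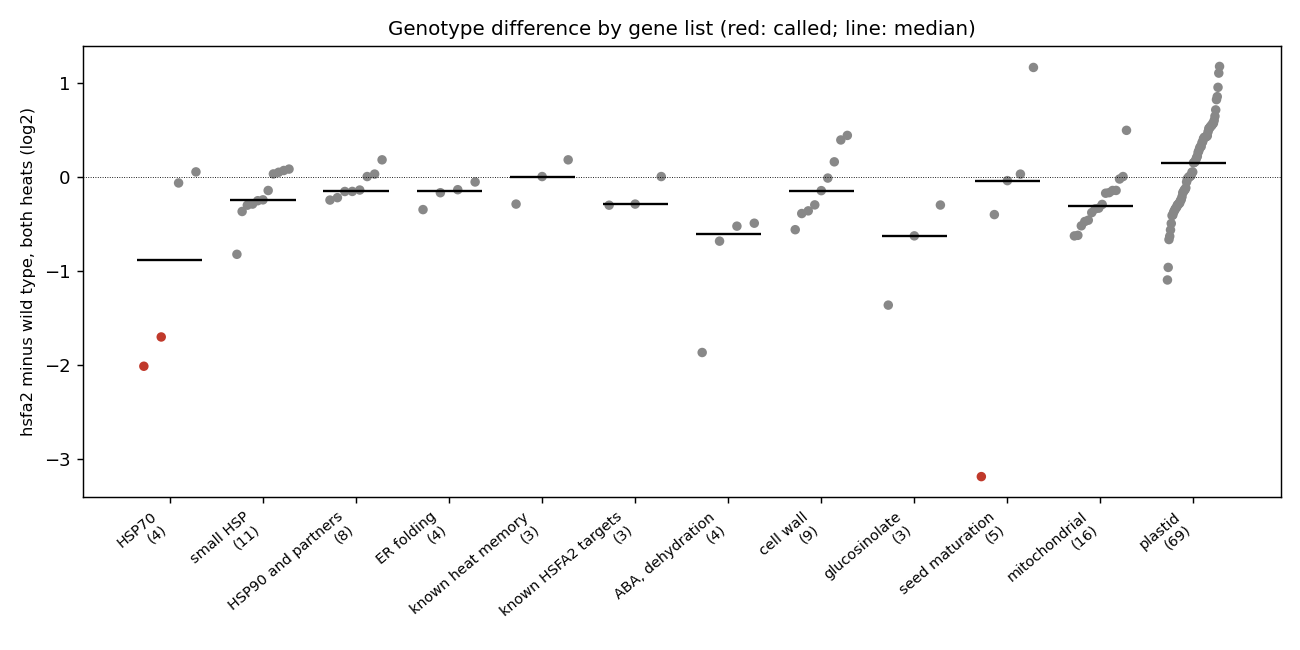
Log2 difference of hsfa2 minus wild type after both heats (y axis) for each measured member of 12 gene lists (x axis, number of members in brackets), with called members in red, others in grey and the list median as a line. HSP70 is the list with 2 called members, at −2.02 and −1.71, while the 11 small heat shock protein genes lie between −0.83 and 0.08.

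Other called falls came from genes with a large response to one heat. AT5G07330 was at 10.95 and 10.59 in hsfa2 and at 12.74, 12.46 and 12.58 in the wild type (−1.82, SE 0.23, limma adjusted p = 0.00162), and it had risen by 6.96 (SE 0.20) with one heat in the wild type. AT5G53680, which encodes an RNA-binding protein, was at 9.02 and 8.16 in hsfa2 and at 10.65, 10.42 and 10.13 in the wild type (−1.81, SE 0.23), after a wild-type rise of 6.09 with one heat. AT5G05220 was at 6.74 and 6.27 in hsfa2 and at 9.06, 9.17 and 8.72 in the wild type (−2.48, SE 0.22, limma adjusted p = 0.00024). For AT5G05220 both hsfa2 arrays were already below the wild type after one heat (7.25 and 6.88 against 7.87, 8.23 and 7.52, a difference of −0.81, SE 0.22, not called). All 3 genes still responded to heat in hsfa2: against no heat, both heats raised AT5G07330 by 6.90, AT5G53680 by 5.69 and AT5G05220 by 2.77 in hsfa2, and by 8.77, 7.41 and 4.96 in the wild type. These responses share arrays with the genotype comparison and are given side by side.

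AT1G02700 was at 6.44 and 5.85 in hsfa2 and at 8.85, 8.21 and 8.37 in the wild type (−2.33, SE 0.26), with overlapping arrays after one heat. AT1G27285, which RefSeq lists as a pseudogene, was at 6.28 and 6.33 in hsfa2 and at 7.85, 8.19 and 8.25 in the wild type (−1.79, SE 0.17, limma adjusted p = 0.000304). AT2G20720, a pentatricopeptide repeat gene, was at 5.63 and 5.38 in hsfa2 and at 7.63, 7.07 and 7.37 in the wild type (−1.85, SE 0.24). Each of these had risen by over 1 log2 unit with one heat in the wild type. AT3G62780 (−1.98, SE 0.27), the jacalin lectin family gene AT1G73040 (−1.89, SE 0.25) and the carboxylesterase gene CXE16 (−1.65, SE 0.21) had responded less to one heat, by 0.87, 0.78 and 0.75, and all 3 differed without overlap.

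A further group had no called response to one heat. EXLA1, which encodes an expansin-like protein, was at 6.76 and 6.41 in hsfa2 and at 8.85, 8.31 and 8.44 in the wild type after both heats (−1.95, SE 0.32, limma adjusted p = 0.00943). Its arrays also differed without heat, 6.66 and 6.86 in hsfa2 against 7.73, 8.08 and 7.34 in the wild type, by −0.96 (SE 0.32), which was not called. TET2, a tetraspanin of the cell membrane, was at 6.78 and 6.25 in hsfa2 and at 8.47, 7.88 and 8.14 in the wild type (−1.65, SE 0.29, limma adjusted p = 0.0174). AT2G27080, a gene of the family of the defence gene NDR1, was at 6.51 and 6.16 in hsfa2 and at 8.34, 7.88 and 8.26 in the wild type (−1.83, SE 0.35, limma adjusted p = 0.0245).

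In GSTU20 and AT1G73600 the hsfa2 level after both heats was below the other hsfa2 levels as well. GSTU20, a glutathione transferase, was at 8.77 and 8.31 in hsfa2 and at 10.21, 10.38 and 10.36 in the wild type after both heats (−1.78, SE 0.34, limma adjusted p = 0.0237). After one heat it was at 10.45 and 9.90 in hsfa2 and at 9.82, 10.04 and 9.89 in the wild type, and without heat at 9.98 and 10.07 in hsfa2 and at 10.19, 9.78 and 11.19 in the wild type. AT1G73600, a gene for a methyltransferase of phosphocholine synthesis, was at 6.36 and 6.24 in hsfa2 and at 7.65, 8.07 and 8.78 in the wild type (−1.87, SE 0.35, limma adjusted p = 0.0225). After one heat AT1G73600 was at 8.46 and 7.42 in hsfa2 and at 7.74, 8.31 and 8.02 in the wild type. For both genes the hsfa2 arrays with both heats were below all arrays with one heat or no heat, whereas the wild type with both heats overlapped its unheated arrays.

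The largest fall of all belonged to a probe set that the annotation used here does not list, which is unnamed. HSFA2 has no listed probe set either, and whether this signal is its transcript was not tested. The probe set was at 3.34 and 3.56 in hsfa2 and at 12.31, 12.77 and 12.19 in the wild type after both heats (−8.97, SE 0.19, limma adjusted p = 1.34e-11). After one heat it was at 3.69 and 3.71 in hsfa2 and at 12.79, 12.22 and 12.38 in the wild type (−8.77, SE 0.19). Without heat both genotypes were low, at 3.18 and 3.27 in hsfa2 and at 3.42, 3.41 and 3.66 in the wild type, so the probe set rose with heat in the wild type (8.97, SE 0.17, with one heat) and was within 1 log2 unit of its unheated level in hsfa2. The next unnamed fall, 258603_at, was at 5.02 and 5.18 in hsfa2 and at 8.91, 8.68 and 9.40 in the wild type (−3.90, SE 0.49).

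The rises in hsfa2 were smaller. AT4G19160 was at 9.63 and 10.21 in hsfa2 and at 8.33, 8.49 and 8.26 in the wild type after both heats (1.56, SE 0.27, limma adjusted p = 0.0135). Without heat both genotypes were at about the level of the mutant with both heats, 9.57 and 9.90 in hsfa2 and 10.01, 9.50 and 9.39 in the wild type. After one heat the genotypes overlapped at lower levels, 8.95 and 9.10 in hsfa2 and 9.38, 8.46 and 9.07 in the wild type (0.06, SE 0.27). AT5G16520 was at 6.34 and 6.47 in hsfa2 and at 5.08, 4.81 and 5.12 in the wild type after both heats (1.40, SE 0.18). Without heat it was at 6.31 and 6.31 in hsfa2 and at 6.01, 6.22 and 6.52 in the wild type. After one heat its arrays were already apart, at 5.84 and 5.96 in hsfa2 and at 5.67, 5.08 and 5.49 in the wild type (0.49, SE 0.18, not called). AT5G47390, a MYB transcription factor gene, was at 9.23 and 9.47 in hsfa2 and at 8.31, 8.05 and 8.30 in the wild type (1.13, SE 0.16, limma adjusted p = 0.00382), and had fallen by 0.54 (SE 0.14) with one heat in the wild type. AT5G02940 (1.15, SE 0.14), AT1G19485 (1.18, SE 0.17) and the mitochondrial carrier gene AT1G72820 (1.14, SE 0.23) were also higher in hsfa2, and in each the unheated levels of both genotypes lay nearer to the mutant than to the wild type after both heats, except in 2 wild-type arrays (6.39 and 6.47) of AT1G19485. AT5G02940 was already higher in hsfa2 without overlap without heat (0.52, SE 0.14) and after one heat (0.31, SE 0.14), neither called. From no heat to both heats it changed by −0.56 (SE 0.16) in hsfa2.

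AT5G20200 was higher in hsfa2 after both heats, at 7.63 and 7.46 against 6.28, 5.88 and 6.37 in the wild type (1.37, SE 0.16, limma adjusted p = 0.000796). It was equally apart after one heat, at 7.27 and 7.44 in hsfa2 and at 6.13, 6.03 and 5.97 in the wild type (1.31, SE 0.16, limma adjusted p = 0.0146). Without heat its arrays overlapped (6.36 and 6.23 in hsfa2, and 6.28, 5.97 and 6.33 in the wild type). AT3G15760 (1.42, SE 0.30), the jasmonate-regulated gene JRG21 (1.25, SE 0.25) and AT4G18450, which encodes an AP2/ERF transcription factor (1.25, SE 0.25), completed the named rises. JRG21 was low in both genotypes after both heats, at 4.51 and 4.94 in hsfa2 and at 3.73, 3.07 and 3.61 in the wild type. AT4G18450 was the exception among the named rises in its heat response: it rose by 3.42 (SE 0.22) with one heat in the wild type, and after both heats was at 7.99 and 7.44 in hsfa2 and at 6.43, 6.97 and 6.01 in the wild type. Its arrays were also apart after one heat, at 7.87 and 7.95 in hsfa2 and at 7.08, 7.30 and 6.75 in the wild type (0.86, SE 0.25, not called). Of unnamed probe sets, 257280_at was higher by 1.58 (SE 0.32) and 264210_at by 1.39 (SE 0.16).

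**Figure D3:**
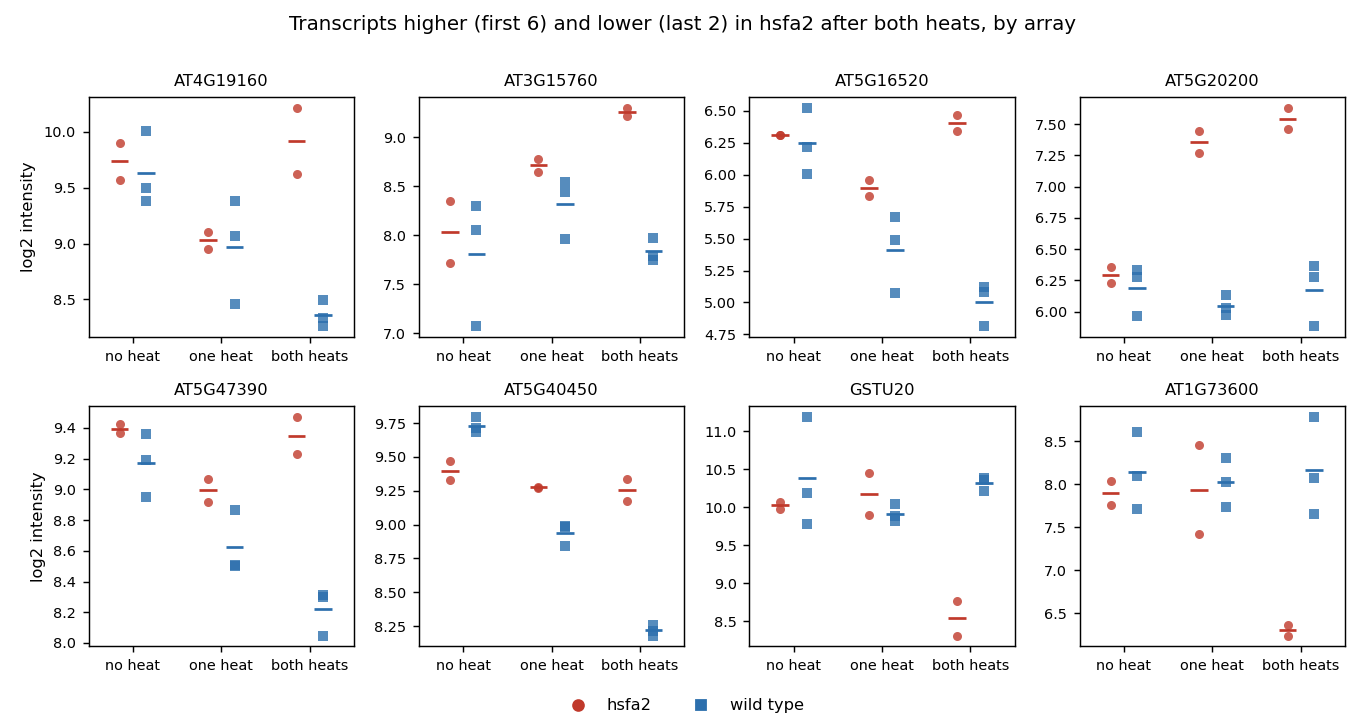
Log2 intensity (y axis) of 6 transcripts higher and 2 lower (GSTU20 and AT1G73600) in hsfa2 after both heats, in seedlings with no heat, one heat and both heats (x axis), with hsfa2 arrays as red circles left of wild-type arrays as blue squares and group means as lines. AT5G20200 stood apart after one heat as well (7.27 and 7.44 in hsfa2), and GSTU20 was lowest in hsfa2 after both heats (8.31 and 8.77).

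Whether the called probe sets were heat responsive was read from one heat against no heat in the wild type, 6 arrays that the genotype comparison does not use. They are not independent of it, as same-numbered wild-type arrays with one heat and both heats deviated together (r = 0.563 to 0.656). Both readings also shared the estimate of spread. What this adds to the shares below was not tested. Of all probe sets, 611 (2.69%) were called at least 2-fold higher with one heat and 821 (3.61%) at least 2-fold lower. Of the 181 probe sets lower in hsfa2 after both heats, 55 (30.4%) were in the heat-induced class, 4 in the repressed class and 122 in neither. Of the 130 higher ones, 2 were in the induced class, 7 (5.38%) in the repressed class and 121 in neither. The median wild-type response to one heat was 0.66 over the 181 and −0.21 over the 130, against 0.00 over all. The 611 heat-induced probe sets as a whole had a median genotype difference of −0.30 after both heats. The share of 30.4% was 50% without hsfa2 replicate 1 and 59.3% without hsfa2 replicate 2, among the fewer calls left.

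Fewer probe sets were called in the arrays with one heat. There, 2 passed the threshold (0.00879%), the unnamed one of the largest fall and AT5G20200, both of which were also called after both heats, and 1576 had an unadjusted p under 0.05. The count was 31 without hsfa2 replicate 1 of one heat and 1 without any other of those 5 arrays. Over the 181 lower probe sets the median difference after one heat was −0.14, with 132 (72.9%) below 0, against 45.1% of all probe sets and a median of 0.02. Over the 130 higher ones it was 0.22, with 111 above 0. Both sets were chosen on the difference after both heats, so their medians after one heat are a description. Without heat, 0 probe sets were called by limma, the smallest adjusted p was 0.0766, and 1317 had an unadjusted p under 0.05. The count was 5 without wild-type replicate 2 and 4 without wild-type replicate 3 of no heat. The median differences there were −0.10 over the 181 and 0.19 over the 130.

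**Figure D4:**
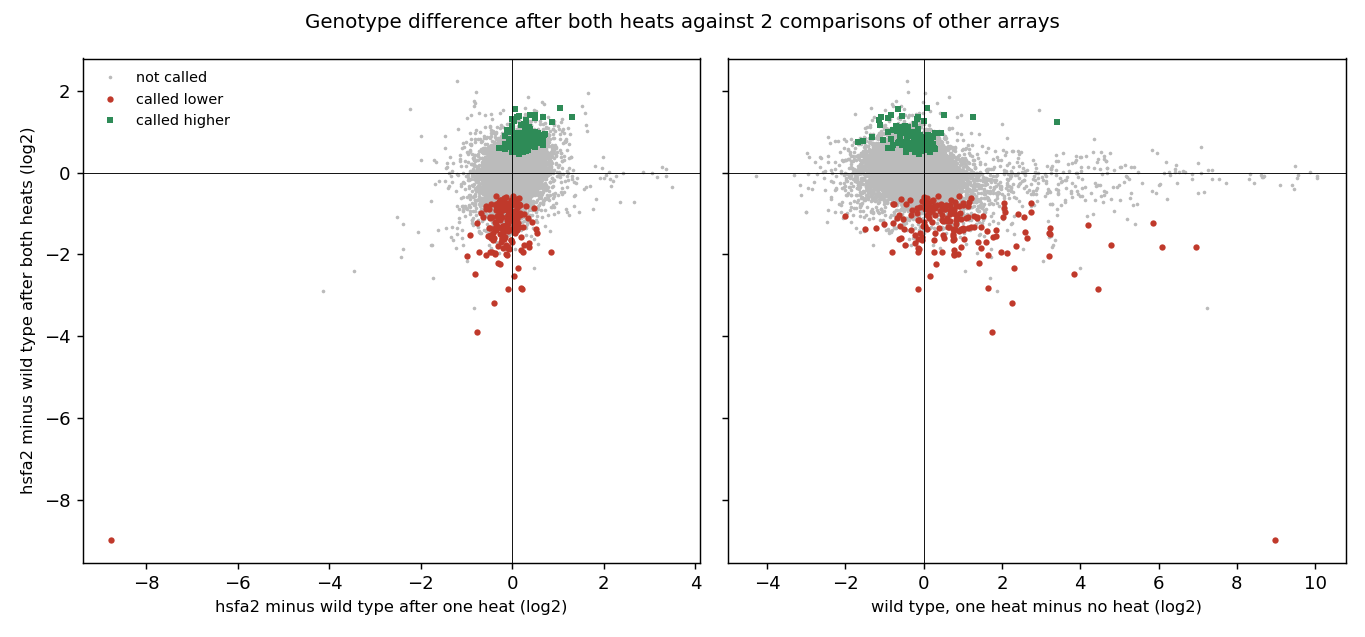
Log2 difference of hsfa2 minus wild type after both heats (y axis) for each of 22746 probe sets, against the same difference after one heat (left x axis) and against the wild-type response to one heat (right x axis), with 181 called lower in red, 130 called higher in green and the rest in grey. The point at −8.97 is the unnamed probe set that was low in hsfa2 after either treatment, and the median of all 181 called falls was −0.14 after one heat.

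The test of that change in the genotype difference is the interaction term. Both heats minus one heat gave 11 calls (0.0484%), all lower, with 1850 at an unadjusted p under 0.05. The 6 with 1 gene were AT2G21820 (−2.80, SE 0.41), AT5G55050 (−2.79, SE 0.41), UGT71C2 (−2.56, SE 0.38), AT1G02700 (−2.46, SE 0.37), AT5G40645 (−1.96, SE 0.27) and AT1G11660 (−1.91, SE 0.28), with limma adjusted p-values of 0.0326 to 0.0362. For the rest of the 311 the genotype differences after both heats and after one heat were not shown to differ in this fit. A fit of only the 10 arrays heated just before collection gave 0 calls in this term. Same-numbered wild-type arrays with both heats and one heat deviated together (r = 0.563 to 0.656). With number within genotype as a replicate block, the fit of all arrays gave 18 calls (9 of the 11 among them) and that of the 10 heated arrays gave 341, 231 lower and 110 higher, on 3 residual degrees of freedom and with all 11 among them. Of the 6 genes, AT1G02700 lost the call in the first of these blocked fits (limma adjusted p = 0.0889). Single arrays decided it as well: 1 call was left without hsfa2 replicate 2 of either heated group, 2 without wild-type replicate 1 of either group or without wild-type replicate 3 of both heats, 4 and 5 without wild-type replicates 3 and 2 of one heat, and 39 without hsfa2 replicate 1 of one heat.

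Both heats minus no heat gave 33 calls (0.145%), 28 lower (0.123%) and 5 higher (0.022%), all of them also called after both heats. Of these, 10 were called in both terms. Named genes among the higher ones were AT5G20200 (1.27, SE 0.22) and AT5G40450 (1.37, SE 0.16). Besides the genes above, the lower ones included UBA1A, which encodes an RNA-binding protein (−1.25, SE 0.22). It was at 8.20 and 8.26 in hsfa2 and at 9.45, 9.31 and 9.41 in the wild type after both heats, and its arrays after one heat overlapped. The count was 2 without hsfa2 replicate 2 of both heats or hsfa2 replicate 1 of no heat, 4 without hsfa2 replicate 2 of no heat, and 12, 15, 18, 15 and 21 without wild-type replicate 1, wild-type replicate 3 or hsfa2 replicate 1 of both heats or wild-type replicate 1 or 3 of no heat.

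The effect of the earlier heat on the level after the later one was then set side by side for the genotypes, as both heats minus one heat within each. In hsfa2, 0 probe sets were called by limma, with 1331 at an unadjusted p under 0.05 and a smallest adjusted p of 0.753. In the wild type 70 were called (0.308%), 69 of them higher (0.303%), with 1098 at an unadjusted p under 0.05. Each group held 2 arrays in hsfa2 and 3 in the wild type, so the counts do not compare the size of the effect. With the replicate block the counts were 0 in hsfa2 and 80 in the wild type over all arrays, and 43 in hsfa2 and 221 in the wild type over the 10 heated arrays, which gave 0 and 41 without the block. Over the 181 probe sets lower in hsfa2 the median effect was −0.25 in hsfa2 and 0.74 in the wild type, and it was above 0 for 22 in hsfa2 and for 178 in the wild type. Over the 130 higher ones it was 0.31 in hsfa2 and −0.29 in the wild type, above 0 for 118 in hsfa2 and for 3 in the wild type. These values use the arrays that chose the probe sets, so they describe the calls and test nothing. Against no heat, both heats gave 1775 calls in hsfa2 (7.8%) and 4504 in the wild type (19.8%), from 4 and 6 arrays. Over the 181 the median response was 0.25 in hsfa2 and 1.40 in the wild type.

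Called probe sets were also set beside gene length, the distance from the first to the last annotated base in RefSeq's TAIR10.1, a property chosen after the calls were seen. The 71 higher probe sets with 1 gene had a median length of 3617 bases, the 96 lower ones 2113.5 bases and all 13436 with a length 2117 bases. The share called higher was 0% of 1771 probe sets of genes under 1 kb, 0.137% at 1 to 2 kb, 0.599% at 2 to 4 kb, 1.81% at 4 to 8 kb and 2.92% of 137 over 8 kb. The share called lower was 0.734%, 0.664%, 0.829%, 0.47% and 0% in the same classes. The median genotype difference over all probe sets of a class was −0.07 under 1 kb and 0.30 over 8 kb after both heats, −0.01 and 0.12 after one heat, and −0.01 and 0.06 without heat. Leaving out any one of the 5 arrays gave medians of 0.20 (without wild-type replicate 2) to 0.40 over 8 kb and of −0.09 to −0.05 under 1 kb after both heats. Among the 4 called over 8 kb, AT5G40450 (11239 bases) was at 9.18 and 9.34 in hsfa2 and at 8.18, 8.26 and 8.22 in the wild type (1.04, SE 0.12, limma adjusted p = 0.000771). ATRX, a chromatin remodeller of 9937 bases, was at 6.99 and 7.06 in hsfa2 and at 6.31, 5.79 and 6.12 in the wild type (0.95, SE 0.18), and AT1G02080 (13579 bases) differed by 0.80 (SE 0.16). These named long genes were chosen after their values were seen. The 3′ to 5′ difference of GAPDH given above was between the wild-type extremes in both hsfa2 arrays, and its part in this pattern was not tested. Set against the mean of the 5 arrays, the median of the 1627 probe sets of genes over 4 kb was 0.07 and 0.09 in hsfa2 and −0.04, −0.12 and 0.02 in the wild type.

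**Figure D5:**
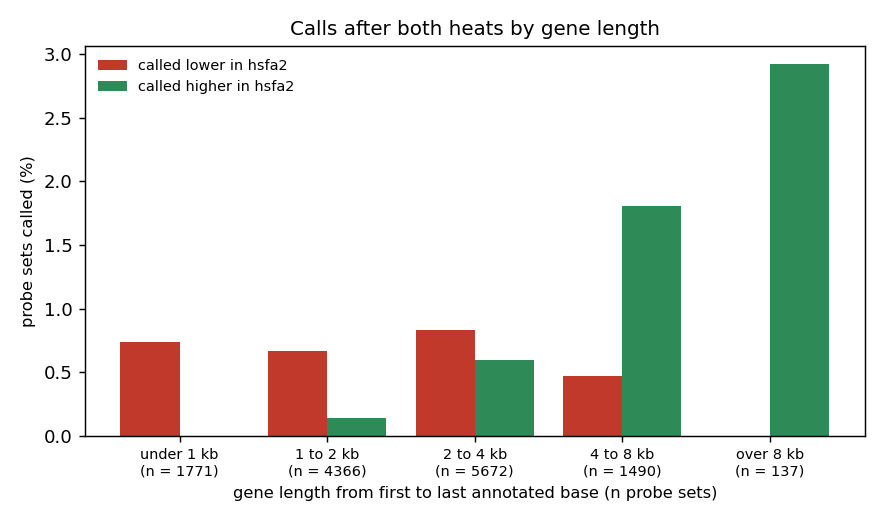
Share of probe sets called lower (red) and higher (green) in hsfa2 after both heats (y axis, percent) by length of the gene (x axis, number of probe sets in brackets). The share called higher was 0% under 1 kb and 2.92% over 8 kb, and the share called lower was 0.734% and 0% in the same classes.

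Among called probe sets with 1 gene, a single pair of protein-coding genes, AT5G40645 and SDH2-2, lay next to each other. Calls without a listed gene had no position and could not be examined for this. SDH2-2, a gene for an iron-sulfur subunit of succinate dehydrogenase in the respiratory chain, was at 9.12 and 8.99 in hsfa2 and at 10.18, 9.79 and 9.92 in the wild type (−0.91, SE 0.14, limma adjusted p = 0.00815). On chromosome 5, which holds both, 26 probe sets with 1 gene were lower and 14 higher of 3008 tested. The counts were 29 lower and 18 higher of 3451 on chromosome 1, 15 and 8 of 2200 on chromosome 2, 18 and 15 of 2746 on chromosome 3, and 8 and 16 of 1962 on chromosome 4.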

How the data were processed

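RNA from whole seedlings was hybridised to Affymetrix arrays. The deposited intensity values are on a linear scale and were made with RMA, per the submitters' processing notes; its version is not given in the sources used here. The deposited intensities were put on the log2 scale without a pseudocount, and 22746 probe sets were kept after control probe sets were dropped. Groups came from the sample titles. Limma 3.58.1 in R 4.3.3 (statmod 1.5.0) was fitted to 17 arrays in 7 groups (10 residual degrees of freedom, prior 2.92). P-values were adjusted over the whole table by the Benjamini-Hochberg method, calls were made at an adjusted p under 0.05, and errors are SE of the fit. Same-numbered wild-type arrays with both heats and with one heat deviated from their group means together (r = 0.563, 0.642 and 0.656, against at most −0.03 for other numbers). The 2 hsfa2 pairs were both at 0.174, a value that 2 arrays in a group force to be the same for both. Number within genotype entered only the fits with that replicate block, and the main fit had no term for it. The number of arrays limits the precision. The fit was tested on simulated data with independent noise of the same spread in every group. That simulation lacked the unequal spread and the shared deviations of these arrays, so it does not bear on the count of calls. Of the probe sets, 13513 had 1 gene in the platform's annotation, 503 several and 8730 were not listed, and 13436 matched RefSeq's TAIR10.1. In the lists, the probe set with the highest mean stood for its gene. Genes were named as the 20 largest falls and 10 largest rises with 1 gene, the 2 largest unnamed changes in each direction, and list members; UBA1A, SDH2-2, AT5G40450, AT1G02080, ATRX and the genes called in the interaction terms were added after their values were seen. The comparison and all 21 lists were chosen with earlier results of these data known; the mitochondrial list was added after the values were seen. Promoter and protein sequences were not used here.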

Additional observations from a re-analysis of the deposited data

Results flagged for a closer look

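The genotype difference of hsfa2 minus wild type itself differed between treatments, by a test of the difference (limma interaction term, adjusted p under 0.05). Between both heats and one heat 11 probe sets passed. The log2 difference of the genotype differences was −2.80 for AT2G21820, −2.79 for AT5G55050, −2.56 for UGT71C2, −2.46 for AT1G02700, −1.96 for AT5G40645 and −1.91 for AT1G11660. AT5G40645 was near background in hsfa2, so its size is uncertain.

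Between both heats and no heat 33 probe sets passed. The unnamed probe set of the largest fall was at −8.70 and 258603_at at −4.18. Of the genes above, AT2G21820 was at −2.96, UGT71C2 at −2.75, AT5G40645 at −2.27, AT1G02700 at −2.21 and AT1G11660 at −1.81. Further falls were those of AT5G05220 (−2.19), AT2G20720 (−2.12), AT1G27285 (−1.94), AT5G07330 (−1.87), AT1G11320 (−1.83), AT1G49560 (−1.81) and AT3G48540 (−1.72). Smaller ones were those of AT4G18280 (−1.39), AT1G62010 (−1.32), AT5G40830 (−1.29), AT3G05675 (−1.29) and UBA1A (−1.25). Rises were those of AT5G40450 (1.37), 264210_at (1.36) and AT5G20200 (1.27). No group held enough arrays for a test of single outlying arrays.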

How the results depend on the processing

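The count of 311 was between 229 and 409 with only the 10 arrays heated just before collection, a replicate block over all arrays, centring, quantile normalization, a filter on low values, a pseudocount of 16, or an intensity trend with a robust prior. It was 5 with only the 5 primed and triggered arrays, 2 with the replicate block in those 5, 1726 with array weights and 533 without the 3 arrays of low bioB signal (wild-type naive replicate 3 and both wild-type primed arrays; chosen after seeing the data). Without one array of the comparison it was 33 to 498. After one heat the count of 2 was 4 with the replicate block, 1 with centring, 14 with array weights, 5 without the low bioB arrays and 1 to 31 without single arrays. Without heat the count of 0 was 3 with the pseudocount of 16, 37 with array weights, 12 without the low bioB arrays and 0 to 5 without single arrays. For both heats minus one heat the count of 11 was 0 with only the 10 heated arrays, 89 with array weights, 27 without the low bioB arrays and 1 to 39 without single arrays. With number within genotype as a replicate block (chosen after seeing the data) it was 18 over all arrays and 341 over the 10 heated arrays. Within hsfa2 the count of 0 for both heats minus one heat was 43 with that block over the 10 heated arrays, and within the wild type the count of 70 was 41 over the 10 heated arrays and 221 with the block added. For both heats minus no heat the count of 33 was 137 with array weights and 2 to 38 without single arrays. Same-numbered hsfa2 and wild-type arrays after both heats had deviations correlated at 0.062 and 0.108, so the numbers were not taken as pairs between genotypes, and the replicate block gave 388 calls (199 higher and 189 lower). The cause of these shifts was not tested. The share of lower calls in the heat-induced class was 30.4%, and 16.1% with array weights, 21.9% without wild-type replicate 2 and 59.3% without hsfa2 replicate 2. None of the 46 probe sets followed singly changed direction under these alternatives. In the fits that left out a single array this was certain beforehand, as their arrays did not overlap. Members of the chaperone, heat memory and HSFA2-dependent lists were followed singly under fits that left out several arrays. Some other lists were followed there only by counts and the smallest adjusted p.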
